A study of Mus musculus with 6 samples.

Results

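The BAF complex, the mammalian SWI/SNF chromatin remodeller, was followed here in mouse embryonic stem (ES) cells that carry a knockout of Zscan5b, a SCAN domain zinc finger gene, and in wild type ES cells. Its 10 subunit genes were Smarca4, Smarca2, Smarcc1, Smarcc2, Smarcb1, Smarcd1, Smarce1, Actl6a, Arid1a and Arid1b. Every probe carrying one of these gene names was taken, which gave 10 of 30458 gene names and 18 of the 39429 gene probes on the array. The design set 3 Zscan5b knockout cultures against 3 wild type cultures, named by the labels as biological replicates. Both genotypes were kept undifferentiated with leukemia inhibitory factor on mouse embryonic fibroblast feeders stopped from dividing with mitomycin C, so the RNA can hold a share from feeder cells. Total RNA was hybridised to 1-colour Agilent arrays, 1 array per culture. The labels do not place the deletion, say how the knockout was made or say whether the knockout cultures are separate clones.

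BAF complexes use the energy of ATP to slide or evict nucleosomes, which opens enhancers and promoters to transcription factors. Each complex holds 1 of a pair of alternative ATPases (Smarca4 or Smarca2), scaffold subunits (Smarcc1, Smarcc2), a common core (Smarcb1, Smarcd1, Smarce1, Actl6a) and 1 of a pair of AT-rich interaction domain subunits (Arid1a or Arid1b). In mouse ES cells the form known as esBAF is built on Smarca4 and Smarcc1 and is known for sustaining self-renewal, while Smarca2 and Smarcc2 belong mostly to the complexes of differentiated cells.

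Several of these genes are read by more than one probe along the transcript, and the probes did not always read alike. The 60-base probes shown carry a RefSeq accession and lie upstream of their gene's brightest probe. They were also required to hold at least 1 reading frame without a stop codon and to lack the letters AATAAA, described below. Each had a log2 fold change above 0 where the brightest probe's was below 0. At Arid1a that sign changed with the processing, and the brightest Smarca4 probe was above 0 under quantile normalization (0.04). Not shown are a Smarcc1 probe without a RefSeq accession (A_55_P1984625, -0.37) and a Smarce1 probe downstream of the brightest (A_55_P2026291, -0.30). Both were below 0, so the shared direction of the probes shown depends on the choice. The conditions on reading frame and AATAAA removed no further probe. The printed probes are written in the sense of the transcript, in lower case, with mm9 positions from the array files.
Smarca4 (A_55_P2154690, chr9:21483531-21483590, plus strand): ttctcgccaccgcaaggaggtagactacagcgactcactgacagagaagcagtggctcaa
Smarcc1 (A_55_P1984622, chr9:110116027-110116086, plus strand): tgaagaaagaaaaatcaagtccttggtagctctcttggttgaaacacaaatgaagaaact
Smarcc1 (A_52_P312837, chr9:110116115-110124422, plus strand): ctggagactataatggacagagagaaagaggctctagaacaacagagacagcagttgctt
Arid1a (A_66_P116888, chr4:133236274-133236333, minus strand): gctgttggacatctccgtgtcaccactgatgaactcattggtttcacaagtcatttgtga
Arid1b (A_55_P2103657, chr17:5321342-5321401, plus strand): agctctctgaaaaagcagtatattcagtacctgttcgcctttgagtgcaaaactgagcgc
Arid1b (A_55_P2103641, chr17:5126965-5127024, plus strand): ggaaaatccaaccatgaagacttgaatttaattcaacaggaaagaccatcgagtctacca
Each of these 6 probes has at least 1 reading frame without a stop codon, as the choice required, so this does not tell them from other probes.

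The probes of Smarca4 (the brighter one), Smarca2 and Smarcb1 hold the letters AATAAA, the usual signal for cleavage and polyadenylation near the 3′ end of a transcript. The 30 bases around that match are shown, with AATAAA in capitals, to place these probes.
Smarca4 (A_55_P2154684): gagtcagacagtAATAAAttaaagcaatga
Smarca2 (A_55_P2007802): tggtactttcctAATAAAccgataacgtac
Smarcb1 (A_55_P2129029): gtaacactttttaAATAAAaagtaccatgt
Searched on the sense strand only, AATAAA occurred in 3 of 18 member probes (16.7%) and in 4965 of 39429 gene probes (12.6%). The match describes the letters of the probe and does not show where the transcript ends.

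The arrays themselves were of similar brightness. Between 25371 and 27754 gene probes were well above background on each array, and an array's 75th percentile signal was 852 to 1028. The wild type arrays were less alike than the knockout arrays. Over tested probes, the SD of the log2 difference was 0.51 to 0.64 between wild type arrays and 0.33 to 0.40 between knockout arrays. Across genotypes it was 0.49 to 0.70. The 3 knockout arrays shared 1 slide and the 3 wild type arrays another, so slide and genotype cannot be told apart in any result below. Zscan5b itself read -4.47, -5.17 and -5.13 in the knockout arrays and -3.66, -4.03 and -3.12 in the wild type arrays. These levels, like all below, are log2 signals from which the array's own 75th percentile was subtracted. Its log2 fold change was -1.32 ± 0.29 (SE, n = 3 per group), and it missed the threshold in limma (adjusted p = 0.107). Array weights gave -1.57 (limma adjusted p = 0.0482), a call, as did leaving out wild type replicate 2, at -1.54 (limma adjusted p = 0.0416). Under normexp background correction it was -0.59. All 15 ES cell markers examined, Pou5f1, Sox2 and Nanog among them, were well above background on all 6 arrays.

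All 10 BAF genes were detected, and no difference between the genotypes passed the test at any of their probes. The brightest probe of each gene was well above background on all 6 arrays, Smarca2 and Smarcc2 included. In limma, 0 of 18 member probes had an adjusted p below 0.05 (0.465% of all tested probes did), and 6 of 18 had an unadjusted p below 0.05, against 21.9% of all tested probes. The adjusted p of the members lay between 0.128 (Arid1a) and 0.933 (the other Arid1a probe). Groups did not overlap at 7 of 18 member probes, 2 higher and 5 lower in the knockout, against 29.0% of all tested probes, 13.6% higher and 15.4% lower. The median SE of a member's log2 fold change was 0.14.

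**Figure D1:**
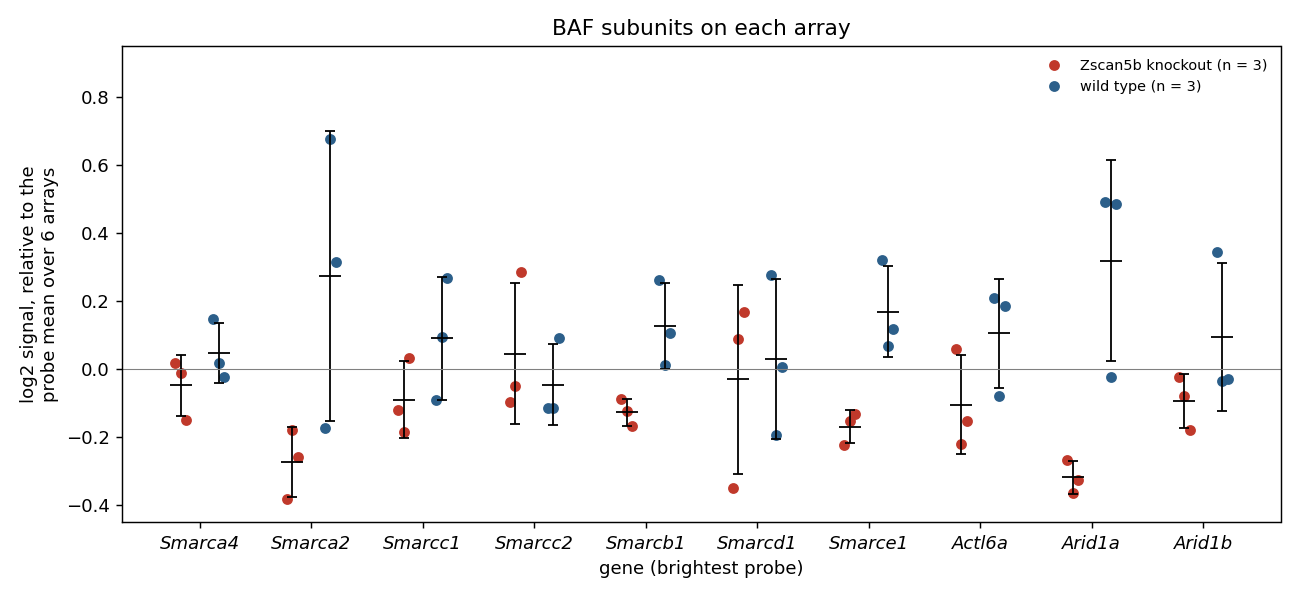
Log2 signal of the brightest probe of each BAF gene on every array, relative to that probe's mean over the 6 arrays; points are arrays, bars the mean and SD (n = 3 per group). The knockout arrays of Smarca2, Smarcb1, Smarce1 and Arid1a all lie below the wild type arrays, with almost no gap between the nearest arrays of Smarca2.

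Smarca4, the ATPase of the ES cell complex, had overlapping groups at both of its probes, which leaned in opposite directions. Its brighter probe (A_55_P2154684, mm9 chromosome 9, 21507751 to 21507810) read 5.18, 5.15 and 5.01 in the knockout and 5.30, 5.18 and 5.13 in wild type. The groups overlapped, and the log2 fold change was -0.10 ± 0.10 (SE, n = 3 per group, 95% interval -0.35 to 0.16, limma adjusted p = 0.602). It was -0.17 under normexp background correction and 0.04 under quantile normalization, the one alternative that turned its direction. The upstream probe printed above read 0.81, 0.53 and 0.65 in the knockout and 0.34, 0.17 and 0.54 in wild type. There the difference ran the other way, at 0.31 ± 0.14 (95% interval -0.02 to 0.65, limma adjusted p = 0.242).

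Smarca2, the alternative ATPase, read lower in the knockout without passing the test. Its single probe (A_55_P2007802, chromosome 19, 26852751 to 26852810) read -4.09, -3.89 and -3.97 in the knockout and -3.88, -3.04 and -3.40 in wild type. All 3 knockout arrays lay below the wild type arrays, but wild type replicate 1 lay just above the highest knockout array. The log2 fold change was -0.55 ± 0.22 (95% interval -1.08 to -0.01, limma adjusted p = 0.223), a 1.46-fold lower signal. It was -0.77 without wild type replicate 1 and -0.34 without wild type replicate 2, and -0.32 under normexp background correction.

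Fibroblast markers were read on the same arrays. Of 30 tested feeder fibroblast markers, 29 read lower in the knockout (median log2 fold change -0.82), and all 30 were well above background on all 6 arrays. Their mean, relative to each probe's mean over the arrays, was -0.62, -0.18 and -0.52 in the knockout and -0.60, 1.03 and 0.89 in wild type. Wild type replicates 2 and 3, the arrays with the highest Smarca2 signal, were also the highest for these markers, and wild type replicate 1 was low in both. The part of feeder RNA in the Smarca2 difference was not tested. In bulk RNA, fewer cells of a type and less RNA per cell cannot be told apart.

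**Figure D2:**
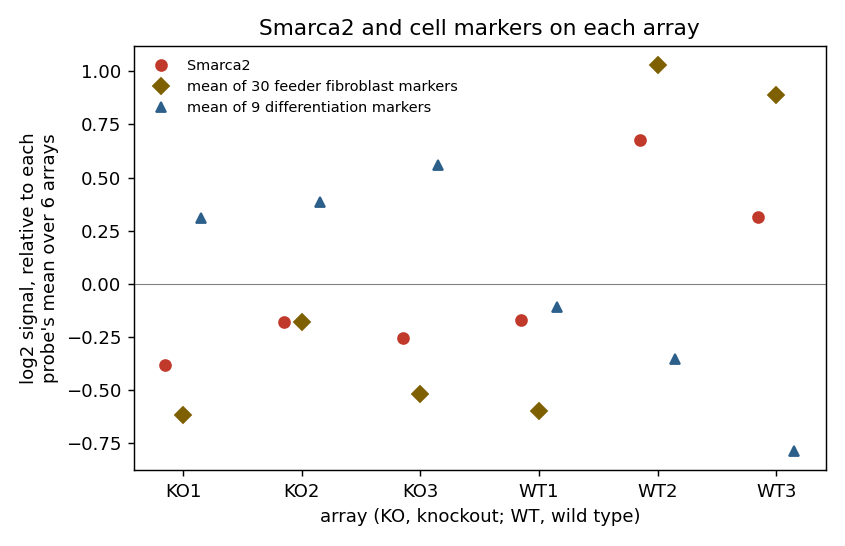
Log2 signal on each array, relative to each probe's mean over the 6 arrays, of Smarca2 (circles), of 30 feeder fibroblast markers (diamonds, mean) and of 9 differentiation markers (triangles, mean). Wild type replicates 2 and 3 are the highest arrays for Smarca2 and for the fibroblast markers (1.03 and 0.89). Of the 9 differentiation markers, 6 were well above background on all 6 arrays.

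The scaffold subunits gave 4 probes for Smarcc1 and 1 for Smarcc2. At Smarcc1, which pairs with Smarca4 in the ES cell complex, the most downstream probe (A_55_P2131153, chromosome 9, 110140717 to 110140776) read 2.27, 2.20 and 2.42 in the knockout and 2.29, 2.48 and 2.66 in wild type. The groups overlapped there, with a log2 fold change of -0.18 ± 0.13 (limma adjusted p = 0.432), and -0.08 under quantile normalization. The first of its probes printed above (A_55_P1984622), 957 bases upstream on the same transcript, read -0.683, -0.851 and -0.735 in the knockout and -0.995, -1.093 and -1.002 in wild type. Here all 3 knockout arrays lay above all 3 wild type arrays, at 0.27 ± 0.10 (limma adjusted p = 0.196). The second (A_52_P312837) gave 0.22 ± 0.12 with overlapping groups. The fourth Smarcc1 probe (A_55_P1984625, chromosome 9, 110086584 to 110086643) was designed on a cDNA clone and not on the RefSeq transcript. It lay lower in all 3 knockout arrays and gave -0.37 ± 0.13 (limma adjusted p = 0.193), and -0.20 under normexp. Smarcc2, the paralog typical of differentiated cells, read -3.59, -3.54 and -3.21 in the knockout and -3.61, -3.61 and -3.40 in wild type. Its groups overlapped, with a log2 fold change of 0.09 ± 0.14 (95% interval -0.25 to 0.43), which was -0.03 without knockout replicate 3.

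Among the core subunits, Smarcb1 and Smarce1 were lower in every knockout array and Actl6a and Smarcd1 overlapped. Smarcb1, a tumour suppressor that anchors the complex to the nucleosome, read 3.46, 3.43 and 3.38 in the knockout and 3.81, 3.56 and 3.65 in wild type. The difference was -0.25 ± 0.11 (95% interval -0.51 to 0.00, limma adjusted p = 0.232), and -0.13 under quantile normalization. Smarce1, a subunit with an HMG DNA-binding domain, read 2.45, 2.52 and 2.54 in the knockout and 2.99, 2.74 and 2.79 in wild type at its brighter probe (A_55_P1989885, chromosome 11, 99071347 to 99071406). The groups did not overlap, and the difference was -0.34 ± 0.11 (95% interval -0.60 to -0.07, limma adjusted p = 0.169), a 1.26-fold lower signal. The other Smarce1 probe, 912 bases downstream, gave a similar -0.30 ± 0.20 with overlapping groups.

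Actl6a, an actin-related protein of the core, read 2.975, 2.698 and 2.763 in the knockout and 3.124, 2.837 and 3.103 in wild type. The difference of -0.21 ± 0.13 had an interval from -0.53 to 0.11 and an adjusted p of 0.376 in limma, and was -0.09 under quantile normalization. Smarcd1, which links the complex to transcription factors, read -2.002, -1.565 and -1.486 in the knockout and -1.377, -1.847 and -1.648 in wild type. The groups lay on top of each other, at -0.06 ± 0.19, and the sign turned without knockout replicate 1 (0.10) or without wild type replicate 1 (0.06).

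The AT-rich interaction domain subunits held the smallest p among the members. Arid1a, the subunit that defines the canonical BAF complex of ES cells and a frequent tumour suppressor, read 2.51, 2.41 and 2.45 in the knockout and 3.27, 2.75 and 3.26 in wild type at its brighter, downstream probe (A_55_P2167769, chromosome 4, 133235092 to 133235151). The knockout arrays lay close together and below every wild type array, and wild type replicate 2 was the nearest to them. The log2 fold change was -0.64 ± 0.16 (SE, n = 3 per group, 95% interval -1.03 to -0.24), with an unadjusted p of 0.00742 and an adjusted p of 0.128 in limma. This probe passed the test without wild type replicate 2 (-0.81, adjusted p = 0.0302) and with array weights (-0.74, adjusted p = 0.0464), and its adjusted p ranged up to 0.375 over the alternatives. The same settings called more probes over the whole array, 1409 higher and 1148 lower without wild type replicate 2 and 318 higher and 324 lower with array weights, against 33 higher and 91 lower with neither. The upstream Arid1a probe, 1182 bases away on the same transcript, did not share this difference. It read 0.38, 0.48 and 0.76 in the knockout and 0.67, 0.01 and 0.83 in wild type, a difference of 0.04 ± 0.24 (95% interval -0.53 to 0.61). Its sign turned without wild type replicate 2 (-0.21).

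Arid1b, the paralog that takes the same place in other BAF complexes, gave 3 probes. The most downstream, which is also its brightest (A_52_P289256, chromosome 17, 5343084 to 5343143) read 0.26, 0.21 and 0.11 in the knockout and 0.63, 0.25 and 0.26 in wild type. The groups overlapped, at -0.19 ± 0.14 (limma adjusted p = 0.435). The middle probe (A_55_P2103657) read -4.73, -5.22 and -5.11 in the knockout and -5.32, -5.66 and -5.65 in wild type. There every knockout array lay above every wild type array, at 0.53 ± 0.17 (limma adjusted p = 0.174), and 0.11 under normexp background correction. The most upstream probe (A_55_P2103641) gave 1.03 ± 0.68, a value set by knockout replicate 2, at -3.40 against -5.71 and -6.09 in the other knockout arrays and -5.97, -6.17 and -6.14 in wild type. Without knockout replicate 2 the difference was 0.19, and under normexp it was 0.36.

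**Figure D3:**
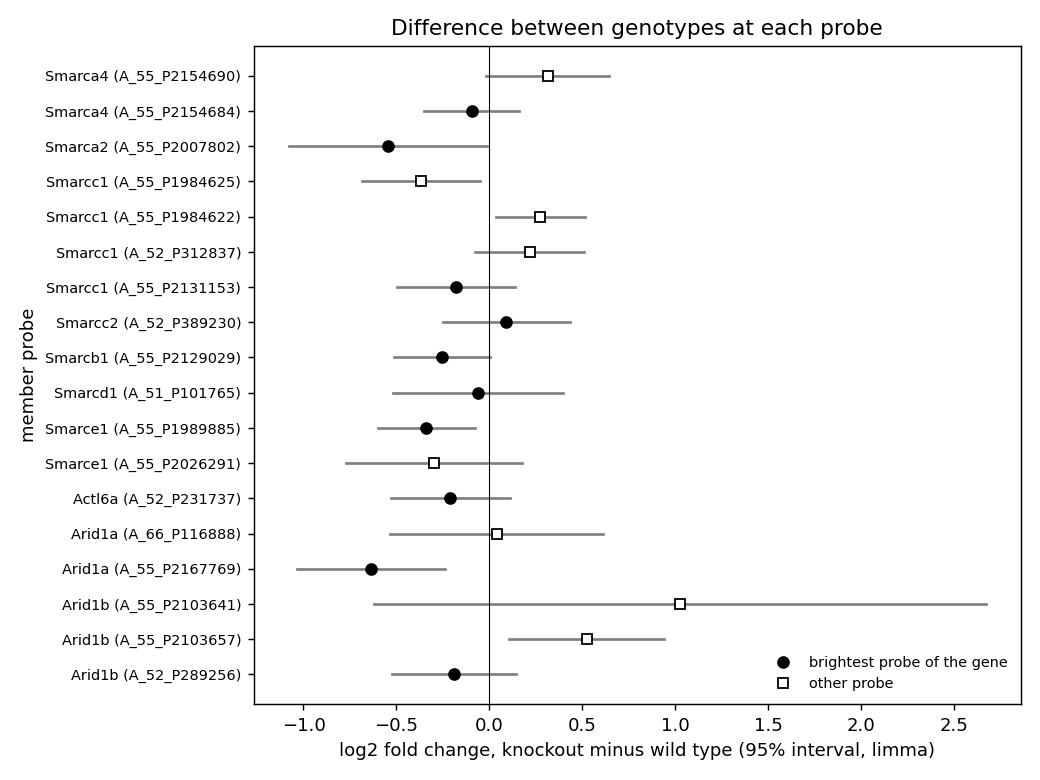
Log2 fold change (knockout minus wild type) with its 95% interval from limma at all 18 member probes, ordered by gene and position along the transcript; filled circles are the brightest probe of each gene, open squares the others. All brightest probes but that of Smarcc2 lie below 0, and 6 of 8 other probes lie above 0.

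The brightest probes and the other probes of these genes leaned in different directions. Of the 10 brightest probes, 9 were below 0, with a median of -0.20. Groups did not overlap at 4 of them, all 4 lower, against 28.9% of the brightest probes of all genes, 12.5% higher and 16.4% lower. At an unadjusted p below 0.05, 3 of the 10 were lower and 0 higher, against 21.7% of the brightest probes of all genes, 9.66% higher and 12.1% lower, and 0 were called after adjustment, against 0.505%. Of the 8 other probes 6 were above 0, with a median of 0.25. When the probes of each gene were averaged instead, the median over the 10 genes was -0.14. Bright probes leaned the same way over the whole array. In the brightest 20% of tested probes, which holds 6 of the 10 brightest member probes, 72.5% were below 0 and the median was -0.12, and 28.6% were lower without overlap. Over all brightest probes the median was -0.03.

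The lean along the transcript could be compared with other genes. A RefSeq transcript with tested probes at least 500 bases apart was available for 4 members (Smarcc1, Smarce1, Arid1a, Arid1b). The upstream minus the downstream log2 fold change was 0.45, -0.04, 0.68 and 1.21, in that order, so the upstream probe had the higher value in 3 of 4 and not at Smarce1. The Arid1b gap, relative to its mean over the arrays, was -0.10, 2.26 and -0.33 in the knockout and -0.74, -0.55 and -0.53 in wild type, so its size came from knockout replicate 2. Over 2390 other transcripts the upstream probe had the higher fold change in 63.1%, with a median gap of 0.10 (quartiles -0.11 and 0.29). The median gap on each array, relative to its mean over the arrays, was 0.06, 0.02 and 0.06 in the knockout and -0.04, -0.08 and -0.02 in wild type. A difference of this kind between the slides or genotypes was thus present across the array, and its part in the member differences was not tested.

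**Figure D4:**
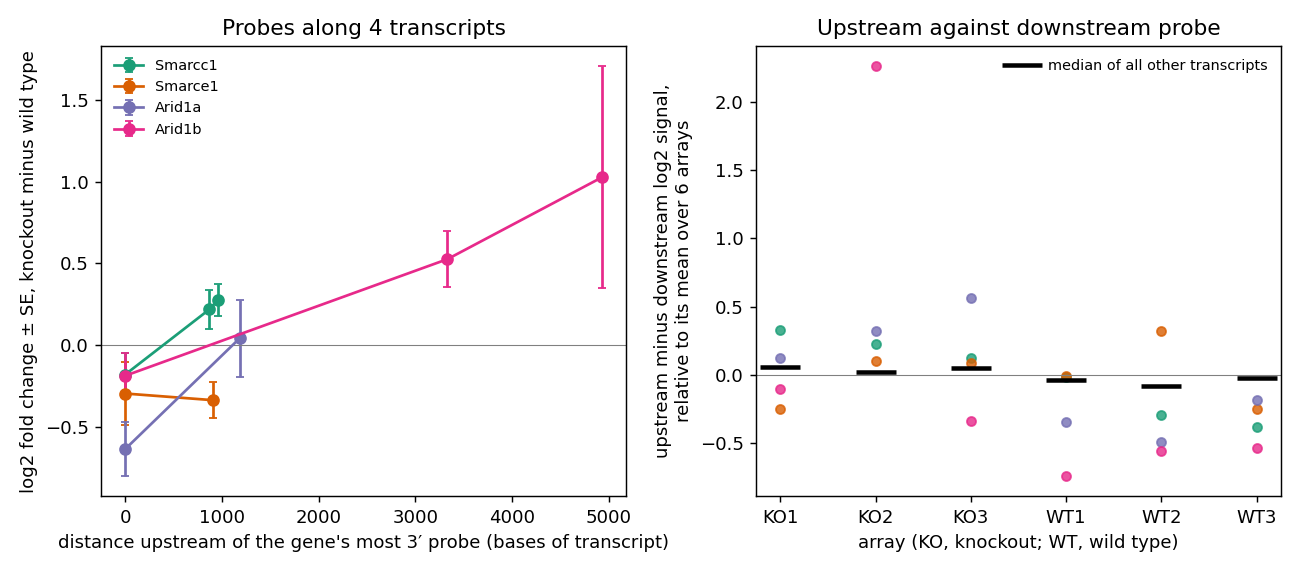
Left, log2 fold change (± SE) at each RefSeq probe of 4 BAF genes against its distance upstream of the gene's most 3′ probe; right, upstream minus downstream log2 signal on each array, relative to its mean over the 6 arrays, for the same genes (coloured points as on the left) and as the median of 2390 other transcripts (black bars). The median of the other transcripts is above 0 in the 3 knockout arrays and below 0 in the 3 wild type arrays.

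Whether the balance of alternative subunits differed was asked within each array, with the brightest probe of each paralog. The differences have no absolute meaning between probes, so each is given relative to its mean over the arrays. Arid1b minus Arid1a was 0.24, 0.28 and 0.15 in the knockout and -0.15, -0.01 and -0.51 in wild type. The groups did not overlap, with a shift of 0.45 (exact two-sided permutation p = 0.1, the smallest that 3 against 3 arrays allow; 0.15 adjusted over the 3 pairs). Smarcc2 minus Smarcc1 was 0.02, 0.14 and 0.25 in the knockout and -0.02, -0.21 and -0.18 in wild type, also without overlap, with a shift of 0.27 (exact permutation p = 0.1, adjusted 0.15). Smarca2 minus Smarca4 was -0.40, -0.17 and -0.11 in the knockout and -0.32, 0.66 and 0.34 in wild type. These groups overlapped, with a shift of -0.45 (exact permutation p = 0.3, adjusted 0.3). The separation depended on which probes were used and, for the Smarcc and ATPase pairs, on the processing. With all probes of a gene averaged, the Arid1 pair (0.75, exact permutation p = 0.2) and the Smarcc pair (0.11, p = 0.6) overlapped, and the ATPase pair (-0.66, p = 0.1) did not. The Smarcc pair also overlapped under quantile normalization (0.11, exact permutation p = 0.4) and normexp (0.28, p = 0.2). The ATPase pair did not overlap under quantile normalization (-0.64, exact permutation p = 0.1). The Arid1 pair did not overlap under quantile normalization (0.35) or normexp (0.44, exact permutation p = 0.1 for both). The ATPase shift was -0.15 under normexp, -0.72 without wild type replicate 1 and -0.23 without wild type replicate 2.

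Other subunits of canonical BAF complexes showed no call either. Of the 14 listed, 13 had a tested probe (Actl6b, the neuronal counterpart of Actl6a, did not), and 0 of 13 were called by limma. At an unadjusted p below 0.05, 1 was higher and 2 were lower, against 9.66% and 12.1% of the brightest probes of all genes. The median log2 fold change was 0.09. Bcl11b, a zinc finger protein that joins BAF in lymphoid and neural cells, had the smallest p. It read -2.92, -2.70 and -2.44 in the knockout and -3.59, -3.70 and -3.88 in wild type, without overlap, at 1.04 ± 0.16 (limma adjusted p = 0.0608), and its other probe gave 0.51 ± 0.19. It passed with array weights (adjusted p = 0.0403), without wild type replicate 1 (0.0499) and without wild type replicate 2 (0.04), and was 0.67 under normexp. Dpf1, a PHD finger subunit of neuronal BAF, lay lower in every knockout array, at -0.64 ± 0.17 (limma adjusted p = 0.135), with -0.44 ± 0.13 at its second probe. Actb, the beta-actin that is shared by the complex and the cytoskeleton, gave -0.33 ± 0.12, and -0.21 under quantile normalization.

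The related assemblies PBAF and non-canonical BAF were represented by 7 genes, of which limma called 0. At an unadjusted p below 0.05, 0 were higher and 2 lower, against 9.66% and 12.1% of the brightest probes of all genes. The median log2 fold change was -0.04, and 0.0272 with all probes of a gene averaged. Phf10, a PBAF subunit, read 2.28, 2.29 and 2.12 in the knockout and 3.19, 2.76 and 2.48 in wild type, at -0.58 ± 0.19 (limma adjusted p = 0.174). Bicra, the defining subunit of non-canonical BAF, was well above background on 5 of 6 arrays and gave -0.50 ± 0.11 (limma adjusted p = 0.101), but -0.12 under normexp (adjusted p = 0.456). Brd7, another PBAF subunit, gave -0.13 ± 0.10, and -0.0036 under quantile normalization. Its other probe, dimmer but well above background on all 6 arrays, ran the other way at 0.30 ± 0.15 with overlapping groups.

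Other ATP-dependent remodellers and their partners, from ISWI, CHD and INO80 assemblies to Atrx and Hells, were taken as a further comparison. Of 37 tested, 0 were called by limma, and 1 was higher and 10 lower at an unadjusted p below 0.05, against 9.66% and 12.1% of the brightest probes of all genes. Groups did not overlap at 18 of the 37, 3 higher and 15 lower, against 12.5% and 16.4% of those probes. In the brightest 20% of tested probes 28.6% were lower without overlap. The 4 of 10 BAF members lower without overlap thus had a like share in this list. Of the 37, 28 (75.7%) were below 0, against 53.5% of all brightest probes and 72.5% of the brightest 20% of tested probes. In the dimmer 20% classes of tested probes that share ran from 41.1% to 53.5%, and the 37 genes were not matched for brightness. Their median was -0.15, and -0.0561 under quantile normalization. Chd8 (-0.35 ± 0.09), Hells (-0.51 ± 0.14) and Atrx (-0.41 ± 0.12) had the smallest p, and all were lower in every knockout array. Chd8 was -0.23 under quantile normalization. Hells and Atrx passed without wild type replicate 2 (limma adjusted p = 0.0426 and 0.0439).

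Markers of the cell types that the cultures could hold were read on the same arrays, and none passed the test. ES cell markers had a median of -0.05, with 2 higher and 1 lower of 15 at an unadjusted p below 0.05 and 0 called by limma. Among the brightest probes of all genes, 9.66% were higher and 12.1% lower at that threshold. The same shares apply to the other marker lists. Pou5f1, the central pluripotency factor, read lower at -0.47 ± 0.10, and Nanog and Klf4 read higher at 0.66 ± 0.22 and 0.56 ± 0.22. Pou5f1 passed without wild type replicate 2 (limma adjusted p = 0.04999), and Klf4 was 0.35 without wild type replicate 3. Differentiation markers had a median of 0.86, and 8 of 9 tested were above 0, with 5 higher and 0 lower at an unadjusted p below 0.05 and 0 called by limma. The mean of the 9 was 0.31, 0.39 and 0.56 in the knockout and -0.11, -0.36 and -0.79 in wild type. Of the 9, 6 were well above background on all 6 arrays, Foxa2 and T on 5 and Pax6 on 4. Very low values enter the wild type means: Foxa2 at -7.45 and T at -6.78 in replicate 3, and Pax6 at -7.92 in replicate 2. With the 6 genes detected on every array the median was 0.82. Nes (0.86 ± 0.22), Sox17 (1.17 ± 0.30) and Gata4 (1.37 ± 0.38) had the smallest p of that list. Sox17 and Gata4 passed with array weights (limma adjusted p = 0.0433 and 0.0472) and without wild type replicate 2 (0.0302 for both), and were 0.57 and 0.65 under normexp. Of the 12 listed, Mixl1, Cdx2 and Elf5 had no tested probe. Among the fibroblast markers, 0 were higher and 8 lower at an unadjusted p below 0.05 and 0 were called. Serpinh1 (-0.65 ± 0.13), Vim (-0.74 ± 0.18) and Fstl1 (-0.55 ± 0.16) had the smallest p of that list. At these genes wild type replicate 1 lay above every knockout array, whereas its mean over the list (-0.60) lay within the knockout range. The part of the marker values in the BAF values was not tested.

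**Figure D5:**
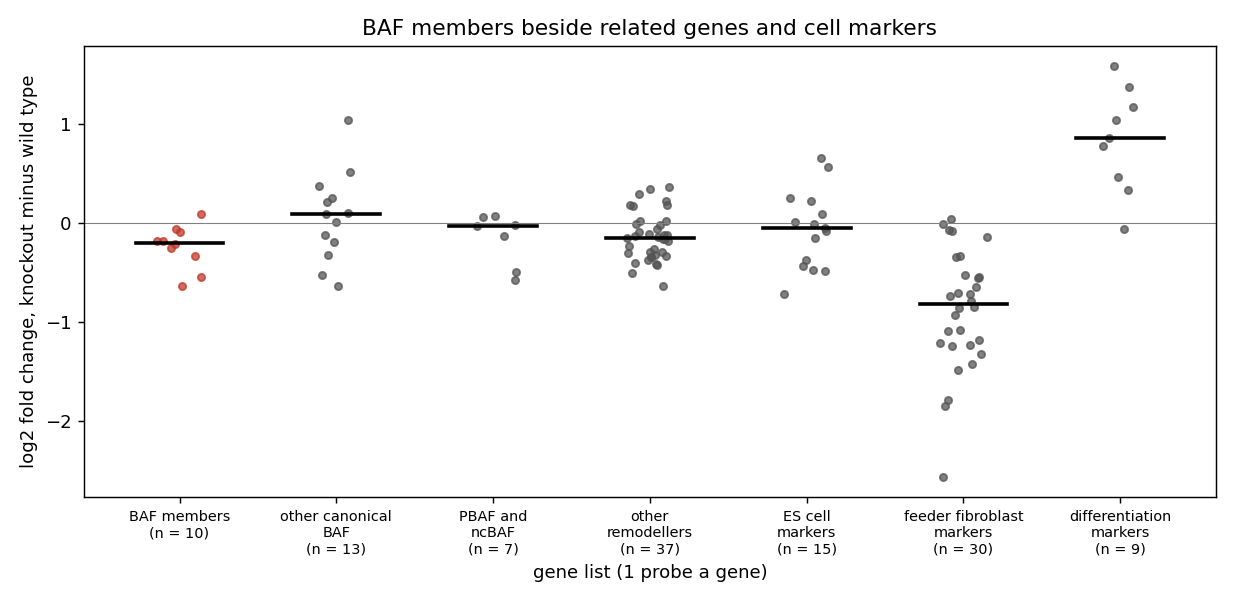
Log2 fold change (knockout minus wild type) of the brightest tested probe of each gene in the BAF set and in 6 lists of related genes and cell markers; points are genes and the black line is the median. The medians are -0.20 for the BAF genes, 0.09, -0.04 and -0.15 for the other remodelling lists, and -0.05, -0.82 and 0.86 for ES cell, fibroblast and differentiation markers.

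The genes whose signal followed Smarca4 most closely over the 6 arrays were Add1, Gphn, Creld2, Tbrg1 and Myh4, with Pearson r from 0.991 to 0.993 among 14963 named candidates. All 5 had overlapping groups, and Myh4 was well above background on 5 of 6 arrays. Among the members' own brightest probes, Smarcb1, Smarce1 and Arid1a followed one another (r of 0.95, 0.94 and 0.91). All of these were lower in every knockout array, and that difference enters their r. Arid1b followed Smarca4 (r of 0.915) and Smarcb1 (0.889), while Smarca4 and Smarcc2 ran opposite to each other (r of -0.85). These correlations describe 6 arrays that share slides and genotype. With so few arrays, the highest r among 14963 candidates does not by itself show a link between genes.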

How the data were processed

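Scanner tables of 6 arrays (3 Zscan5b knockout, 3 wild type, grouped by title) were used. Their spot intensity values are linear, as the authors deposited them. Agilent Feature Extraction had removed spatial and multiplicative trends from the processed signal, per the file headers, which name version 10.7.3.1, whereas the submitters' processing notes name 10.3.1.1. The authors' deposited series table holds log2 values centred per probe, with its scaling between arrays unstated (column medians -0.02, 0.02 and 0.03 in the knockout, 0.02, -0.01 and -0.07 in wild type). It held all 39429 gene probes. Across the tested probes it correlated with the values used here, centred alike, at r of 0.999 or above on every array, and served as an alternative.

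Without control and outlier spots, the processed signals were log2 transformed, replicate spots were averaged, and the 75th percentile of the array was taken off. No spot was saturated. Testing required a signal well above background on 3 or more of 6 arrays (26651 of 39429; 26649 could be fitted). Genotypes were compared with lmFit and eBayes (limma 3.58.1 in R 4.3.3). The p-values are two-sided and were adjusted by Benjamini-Hochberg over every tested probe, with a threshold of 0.05. Other genes were named through RefSeq accessions (GRCm38.p6, names only), by which 26761 probes matched. A gene's brightest probe has the highest average signal among those tested. Text names all members and, per list, up to 3 genes with the smallest p. Likeness was Pearson r with Smarca4. The members and lists were chosen with earlier results of these data known. The fit was tested on simulated data. The number of arrays limits the precision. Figures were drawn with matplotlib 3.10.9.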

Additional observations from a re-analysis of the deposited data

How the results depend on the processing

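Changing the detection filter, the variance prior or the replicate block cannot move a member probe's log2 fold change, only its p. The authors' values nearly repeat the main ones. Their agreement in direction therefore adds little. Of 269 values of member probes under the alternatives, those settings included, 259 kept their direction and their side of the threshold. The exceptions were 2 calls of Arid1a (A_55_P2167769), at -0.74 with array weights and -0.81 without wild type replicate 2, and 8 changes of sign. The sign changed at Smarca4 (A_55_P2154684) under quantile normalization (0.0358), at the upstream Arid1a probe under centring on the median of tested probes (-0.015) and array weights (-0.11) and when a replicate was left out (-0.21 to 0.20), at Smarcd1 (-0.17 to 0.10 when a replicate was left out) and at Smarcc2 (-0.0278 to 0.16 likewise). The count of member probes called was 1 with array weights, 0 to 1 when a replicate was left out and 0 otherwise. Over all probes, 33 higher and 91 lower calls became 0 and 0 under normexp, without a detection filter, with detection on all 6 arrays, with a trended and robust prior and with the replicate block, 50 and 131 under quantile normalization, 54 and 177 under median centring and 318 and 324 with array weights, and ran from 0 to 1409 and from 0 to 1148 when a replicate was left out; the cause was not tested. The members' median was -0.13 under quantile normalization, -0.25 under median centring, -0.26 with array weights, -0.14 with all probes of a gene averaged, and -0.28 to -0.17 when a replicate was left out. Quantile normalization gave -0.0561 for other remodellers and 0.0471 for ES markers, normexp 0.37 for differentiation markers and averaging all probes 0.0111 for other canonical subunits. Leaving out a replicate gave -0.15 to 0.0156 for PBAF and non-canonical BAF and -0.12 to 0.0757 for ES markers. Whether replicate numbers pair the arrays could not be decided. Deviations from the group means correlated at 0.16, 0.23 and -0.14 between same-numbered arrays, and from -0.32 to 0.21 between differently numbered arrays. In this balanced design the replicate block leaves each member's log2 fold change as it was, -0.64 at Arid1a (A_55_P2167769). Its adjusted p with the block was 0.211 in limma, and no member probe was called. Dim probes are limited by signal over background: 1 knockout array did not read the most upstream Arid1b probe well above background.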
